A study of Rattus norvegicus with 30 samples.

Results

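Schwann cells are the glia of peripheral nerve, and 7 genes that mark their identity or their state after injury were followed here through the regeneration of the rat median nerve. The genes were taken by their Ensembl identifiers: Sox10 (ENSRNOG00000011305) and S100b (ENSRNOG00000001295) for identity, Egr2 (ENSRNOG00000000640) for myelination, and Jun (ENSRNOG00000026293), Ngfr (ENSRNOG00000005392), Gfap (ENSRNOG00000002919) and Gap43 (ENSRNOG00000001528) for the state after injury. All 7 were among the 32545 genes listed in the count table and among the 16015 with enough counts to be tested. The symbols came with the choice of the genes, since neither the count table nor the reference tables used here pair Ensembl identifiers with symbols. For the same reason no other Schwann cell gene, and no marker of another cell type, is given by name.

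The samples were 30 libraries of poly(A) RNA from median nerve of adult female wild-type rats. Healthy, untreated nerve gave 5 control libraries. In the other groups the nerve had been cut, leaving a gap of 8 mm, and joined through a chitosan tube of 10 mm (chitosan is a sugar polymer prepared from crustacean shells). Samples are the tissue that filled the tube by day 7, 14 or 21 of the repair. Immediate repair, with the tube placed at the time of the injury, gave 4, 4 and 5 libraries at those days. Delayed repair, with the tube placed 3 months after the injury, gave 5, 4 and 3 libraries. How the nerve was kept during those months, and any batch, is not stated. Controls are dated day 0 and share no surgery with the other groups. They are healthy nerve, while the other samples are tissue that filled a tube. The cut, the tube, the kind of tissue and the time since injury thus cannot be told apart in comparisons with control. A fall or rise against control is a difference between these groups, not a change followed within the same tissue. Whether every library stands for a separate rat is not stated, so p-values measure only the spread between these libraries, which may be technical.

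As background, Sox10 is a transcription factor that Schwann cells need throughout their life, and S100b encodes a calcium-binding protein long used as their marker. Egr2, also called Krox20, is the transcription factor that switches on the myelin genes. After a nerve is cut, Schwann cells stop making myelin and take up a repair state that depends on the transcription factor Jun. Repair cells express Ngfr, the low-affinity neurotrophin receptor p75, and Gfap, an intermediate filament protein. Gap43 encodes a membrane protein of growing axons that denervated Schwann cells also make. Jun and Egr2 are in addition immediate early genes that many cell types switch on.

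Total counts per library lay between 11958242 and 17334752. Levels are given as counts per 1000000 of the scaled library total (CPM), and differences as log2 fold changes from edgeR's quasi-likelihood test with Benjamini-Hochberg adjustment over all 16015 genes. A gene was called changed where the adjusted p was under 0.05. Levels were not divided by gene length, so they are compared between groups and not between genes. One library stood apart from its group in these genes: immediate day 21 replicate 4 measured 2.68 CPM of Sox10, while the other 4 libraries of its group measured 187 to 234 CPM. Tests that use that group are given with and without it.

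At day 7 the identity genes were almost absent from the tube, and they were present in unequal measure at days 14 and 21. Sox10 measured 288, 283, 333, 232 and 252 CPM in the 5 control libraries. At day 7 of immediate repair it measured 0.0643, 0.0760, 0.140 and 0.180 CPM, which is 1 or 2 reads per library. At day 7 of delayed repair the 5 libraries measured 0, 0.0707, 5.54, 4.37 and 0.375 CPM. No day 7 library came near control, and within the delayed group replicates 3 and 4 stood above the rest. The day 7 mean was 0.0415% of the control mean with immediate repair and 0.746% with delayed repair. In bulk tissue, fewer Schwann cells and less of the transcript per cell cannot be told apart. The log2 fold change against control was -11.18 (SE 1.43, edgeR adjusted p = 2.57e-07) and -7.03 (SE 1.00, adjusted p = 1.21e-06). Without delayed day 7 replicate 3 the latter was -7.80 (adjusted p = 1.93e-06).

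Sox10 was well counted in every library at day 14 but lay below every control library. Immediate repair measured 39.9, 29.7, 142 and 116 CPM, and delayed repair 50, 46.4, 122 and 45.3 CPM. The immediate libraries thus fell into a low and a high pair, and 1 delayed library stood above the other 3. Against control the log2 fold change was -1.76 (SE 0.84) after immediate repair, which missed the threshold (edgeR adjusted p = 0.0818), and -2.07 (SE 0.85, adjusted p = 0.0435) after delayed repair. The immediate value passed without the 2 libraries immediate day 21 replicate 4 and delayed day 7 replicate 5 (edgeR adjusted p = 0.0193), with voom and sample weights (0.00364), and with only the compared groups fitted (0.00597). The delayed call was lost without any control library (adjusted p = 0.0601, 0.0591, 0.0668, 0.0520 and 0.0544 for replicates 1 to 5 in that order), without delayed day 14 replicate 1, 2 or 4 (0.0988, 0.102 and 0.102), and without the filter on low counts (0.0701).

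At day 21 Sox10 measured 209, 203, 187, 2.68 and 234 CPM after immediate repair and 124, 131 and 44.3 CPM after delayed repair. One of the 5 immediate libraries overlapped the control range, 3 lay just under it, and replicate 4 was within the range of day 7 of delayed repair. No delayed library reached the lowest control. Neither group passed the test against control, with a log2 fold change of -0.73 (95% interval -2.29 to 0.83, edgeR adjusted p = 0.448) and -1.48 (-3.38 to 0.42, adjusted p = 0.201). Without immediate day 21 replicate 4 the former was -0.41 (-1.74 to 0.92, adjusted p = 0.638), at a mean of 208 ± 19.2 CPM (SD, n = 4). The delayed value passed with voom and sample weights (adjusted p = 0.0317) and with only the compared groups fitted (0.00465).

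S100b followed the same course at day 7 and then stayed far below control. It was deeply counted in healthy nerve, with 32591 to 48279 reads per control library, or 2364, 2625, 3851, 2725 and 2639 CPM. Immediate repair at day 7 left 17, 0, 1 and 0 reads, and delayed repair 6, 3, 62, 73 and 68 reads. Most of the reads of the immediate group came from replicate 1. The mean S100b level was 0.0102% of control after immediate and 0.0983% after delayed repair. On the log2 scale the S100b difference was -13.09 (SE 1.31, edgeR adjusted p = 5.46e-09) and -9.97 (SE 1.03, adjusted p = 8.26e-09). Without immediate day 7 replicate 1, which left 1 read in the group, the fitted S100b value was -16.33 (adjusted p = 7.60e-09).

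S100b measured 30.2, 38.2, 140 and 110 CPM at day 14 of immediate repair and 51.3, 36.7, 84.4 and 54.8 CPM at day 14 of delayed repair, differences of -5.16 (SE 0.92, edgeR adjusted p = 4.43e-05) and -5.64 (SE 0.94, adjusted p = 1.90e-05) against control. At day 21 it measured 157, 174, 164, 5.30 and 185 CPM after immediate repair and 109, 87.4 and 39.0 CPM after delayed repair. No repair library of any day came near the control range, and the highest, at 185 CPM, compares with 2364 CPM in the lowest control. The day 21 means were 4.82% and 2.76% of control, where the Sox10 means stood at 60.2% and 35.9%. S100b was still called lower at day 21, at -4.37 on the log2 scale (SE 0.80, edgeR adjusted p = 7.26e-05) after immediate and -5.18 (SE 1.04, adjusted p = 0.000256) after delayed repair. Leaving out immediate day 21 replicate 4 gave -4.06 (adjusted p = 7.02e-05).

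**Figure D1:**
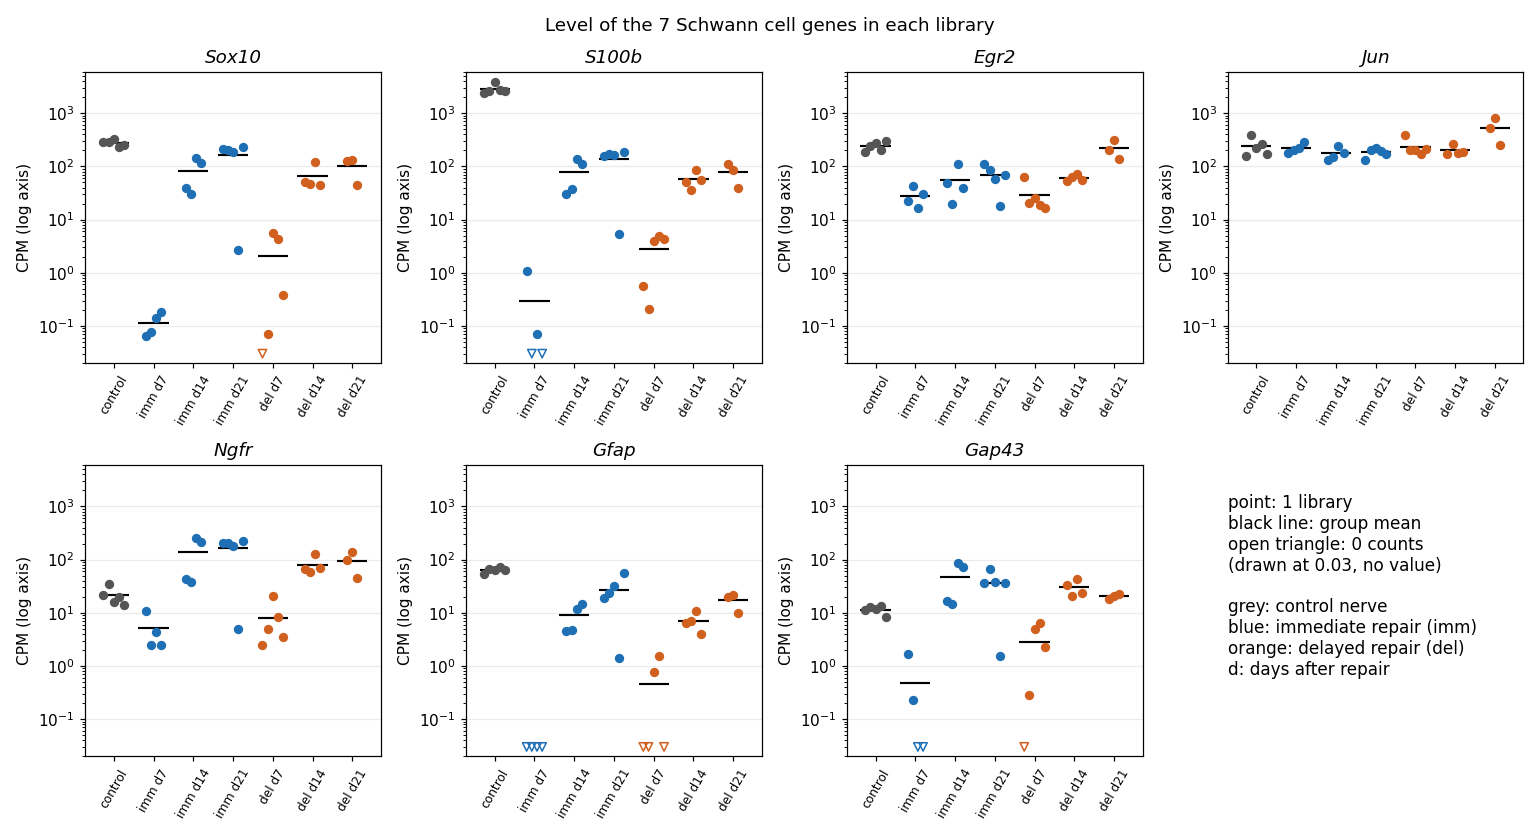
Level of each gene in each of the 30 libraries, in CPM on a log axis, by group; points are libraries, lines are group means, and open triangles mark libraries with 0 counts. Sox10, S100b and Gfap are at or near 0 at day 7, and S100b stays far under control. Gap43 is below control at day 7, with up to 6.5 CPM in delayed repair. Ngfr and Gap43 lie above control at days 14 and 21 except in immediate day 21 replicate 4. That library is the lowest of its group in every gene except Jun.

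The bases upstream of a start site are shown for S100b and Gfap. S100b and Gfap were the only genes of the 7 with a usable upstream sequence. Such a sequence was in the RefSeq table used here and lay outside every annotated transcript of its own gene. Overlap with transcripts of other genes was not checked. The sequences are from rat build GRCr8, read 5′ to 3′ on the minus strand, at chr20:12381160-12381331 (172 bases) and chr10:88361662-88361911 (250 bases). Capitals mark the letters CAAAG or CAATG, the core that SOX-family factors such as Sox10 bind, searched on both strands.
S100b: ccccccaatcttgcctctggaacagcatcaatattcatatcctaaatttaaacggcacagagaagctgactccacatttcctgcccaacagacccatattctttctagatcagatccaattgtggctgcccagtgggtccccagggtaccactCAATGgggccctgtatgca
Gfap: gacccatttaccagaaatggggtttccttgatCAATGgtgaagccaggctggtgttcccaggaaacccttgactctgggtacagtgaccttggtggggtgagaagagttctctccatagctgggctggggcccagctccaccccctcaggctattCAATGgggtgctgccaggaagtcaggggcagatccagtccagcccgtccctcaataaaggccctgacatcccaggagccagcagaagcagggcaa
The S100b window held 1 match and the Gfap window 2, and no match overlapped another. Such short letters are common: 52.9% of 33469 promoter windows of 172 bases held at least 1, and 64.9% of those of 250 bases. The AP-1 letters TGANTCA, bound by Jun, occurred in neither window (4.45% and 6.34% of windows of those lengths hold them), and the EGR letters GCGNGGGCG, bound by Egr2, in neither (2.39% and 4.29%). Egr2 also had an entry, which is not printed because an annotated transcript runs through it. Sox10, Jun, Ngfr and Gap43 were not in the table.

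Egr2, the regulator of myelin genes, fell at day 7 but remained well counted, and it stayed low at day 14. It measured 189, 246, 277, 206 and 302 CPM in control nerve. At day 7 it measured 22.2, 42.1, 16.5 and 30.2 CPM after immediate and 63.2, 20.1, 25.2, 18.8 and 16.3 CPM after delayed repair. All 9 libraries lay below every control, and delayed replicate 1 lay above the other 8. Immediate libraries with 1 or 2 reads of Sox10 thus held 236 to 554 reads of Egr2. The log2 fold change against control was -3.14 (SE 0.51, edgeR adjusted p = 8.23e-06) and -3.09 (SE 0.46, adjusted p = 2.82e-06).

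Egr2 measured 49.3, 19.3, 113 and 39.8 CPM at day 14 of immediate repair and 52.5, 63.8, 71.5 and 54.6 CPM at day 14 of delayed repair, all below control. The log2 fold change was -2.14 (SE 0.48, edgeR adjusted p = 0.000646) and -2.01 (SE 0.48, adjusted p = 0.00110), and the former was -2.75 without immediate day 14 replicate 3 (adjusted p = 0.000103). At day 21 the values of the repairs lay apart. Immediate repair measured 111, 84.6, 58.7, 18.1 and 70.2 CPM of Egr2, still below every control library and lower by a log2 value of -1.83 (SE 0.44, edgeR adjusted p = 0.00134), or -1.59 without replicate 4 (adjusted p = 0.00370). Delayed repair measured 202, 315 and 137 CPM, a mean of 218 ± 90.0 CPM (SD, n = 3) that overlapped control, with a log2 fold change of -0.16 (95% interval -1.18 to 0.86, edgeR adjusted p = 0.820).

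Jun, the factor of the repair state, stayed near its control level at most times. It measured 160, 397, 220, 269 and 168 CPM in control nerve, a range of more than 2-fold among healthy nerves. At day 7 it measured 181, 203, 223 and 289 CPM after immediate and 387, 201, 203, 171 and 216 CPM after delayed repair. These values lay inside the control range. At day 14 it measured 134, 149, 244 and 182 CPM, and 168, 259, 181 and 189 CPM, in that order of repairs. The 2 lowest immediate libraries lay just under the lowest control. None of these 4 groups passed the test, and the log2 fold change and its 95% interval were -0.12 (-0.72 to 0.49), -0.04 (-0.62 to 0.53), -0.45 (-1.06 to 0.16) and -0.29 (-0.89 to 0.32), with edgeR adjusted p = 0.743, 0.898, 0.211 and 0.437.

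At day 21 Jun measured 135, 204, 226, 198 and 175 CPM after immediate repair and 517, 817 and 253 CPM after delayed repair. Replicate 4 of the immediate group, which was low in the other 6 genes, lay in the middle of its group for Jun. Delayed replicates 1 and 2 lay above all control libraries and replicate 3 inside the control range. Immediate repair gave a log2 fold change of -0.37 against control (95% interval -0.94 to 0.20, edgeR adjusted p = 0.283), and -0.39 without replicate 4 (adjusted p = 0.310). Delayed repair gave a rise of 1.12 (SE 0.31, adjusted p = 0.00503). Without delayed day 21 replicate 2 the rise was 0.67 and no longer passed (adjusted p = 0.115).

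Ngfr, the p75 receptor, was low at day 7 and then far above control. It measured 21.3, 35.0, 15.6, 20.2 and 14.2 CPM in healthy nerve. Day 7 of immediate repair measured 11, 2.43, 4.40 and 2.43 CPM, all below control, and day 7 of delayed repair measured 2.53, 5.02, 20.3, 8.33 and 3.50 CPM, of which replicate 3 lay inside the control range. The log2 fold change was -2.06 (SE 0.78, edgeR adjusted p = 0.0236) and -1.42 (SE 0.70, adjusted p = 0.0794). The immediate call was lost without control replicate 2 or immediate day 7 replicate 2, 3 or 4 (edgeR adjusted p = 0.0542, 0.0689, 0.0545 and 0.0679) and with voom and sample weights (0.0956), and its size was -2.77 without replicate 1 (adjusted p = 0.00885). The delayed value passed without delayed day 7 replicate 3 (-2.13, adjusted p = 0.0156), with DESeq2 (0.0439) and with only the compared groups fitted (0.0400).

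At day 14 Ngfr measured 42.5, 38.1, 251 and 218 CPM after immediate and 66.0, 58.7, 126 and 70.3 CPM after delayed repair. All 8 libraries lay above every control. The rise was 2.69 on the log2 scale (SE 0.74, edgeR adjusted p = 0.00360) and 1.91 (SE 0.72, adjusted p = 0.0294). The delayed rise lost its call without control replicate 1, 3, 4 or 5 (adjusted p = 0.0504, 0.0605, 0.0520 and 0.0621) or delayed day 14 replicate 3 (1.61, adjusted p = 0.0866), and with the replicate number as a block (0.0626).

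At day 21 Ngfr measured 206, 210, 180, 4.87 and 225 CPM after immediate repair and 99.3, 141 and 44.3 CPM after delayed repair. The libraries lay above every control library except immediate replicate 4, which lay under all of them. The rise was 2.95 (SE 0.73, edgeR adjusted p = 0.00159) and 2.16 (SE 0.77, adjusted p = 0.0244). The immediate rise was 3.27 without replicate 4 of that group (adjusted p = 0.000107), at a mean of 205 ± 18.8 CPM (SD, n = 4). The delayed rise lost its call without control replicate 3 or 5 (adjusted p = 0.0508 and 0.0516) or delayed day 21 replicate 1 or 2 (0.0534 and 0.107), with a value of 1.75 without replicate 2.

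Gfap, the filament protein, was not detected at day 7 of immediate repair and was below control at day 14 of both repairs. Control nerve measured 54.2, 66.4, 64.9, 72.5 and 62.8 CPM. All 4 immediate libraries at day 7 held 0 reads, and the delayed libraries held 0, 0, 12, 23 and 0 reads. Replicates 3 and 4 of the delayed group, which also led it in Sox10, were those with reads. With a floor of 3 reads over the immediate group (0.0555 CPM), Gfap was at least 1160-fold lower than in control nerve, a call with edgeR adjusted p = 2.62e-07. The floor covers counting error only. At day 7 of delayed repair the fall was -7.03 on the log2 scale (SE 0.91, adjusted p = 6.25e-07), and -8.22 without delayed day 7 replicate 4 (adjusted p = 5.15e-07).

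Gfap measured 4.54, 4.71, 11.8 and 14.6 CPM at day 14 of immediate and 6.39, 6.93, 10.7 and 3.99 CPM at day 14 of delayed repair, all below control. Gfap thus fell by -2.85 (SE 0.78, edgeR adjusted p = 0.00394) and -3.20 (SE 0.79, adjusted p = 0.00178). At day 21 the levels were 19.1, 23.7, 32.2, 1.4 and 55.9 CPM after immediate repair, of which replicate 5 reached the control range, and 20.3, 21.9 and 10.1 CPM after delayed repair. Neither passed the test, at -1.28 (95% interval -2.67 to 0.12, edgeR adjusted p = 0.123) and -1.88 (-3.60 to -0.16, adjusted p = 0.0698). Leaving out immediate day 21 replicate 4 gave -0.97 for the former (adjusted p = 0.193). Both passed with voom and sample weights (adjusted p = 0.00283 and 0.000975). The delayed value also passed with only the compared groups fitted (0.000146), and without immediate day 21 replicate 4 and delayed day 7 replicate 5 (0.0127).

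Gap43, the growth-associated protein, lay below control at day 7 and above it at day 14. It had few reads in healthy nerve, 102 to 209 per library, or 11.3, 13.1, 11.7, 13.2 and 8.26 CPM. Day 7 left 26, 3, 0 and 0 reads after immediate and 0, 4, 78, 95 and 36 reads after delayed repair. All 9 libraries lay below control. Both falls were called, at -4.48 (SE 1.07, edgeR adjusted p = 0.000736), or -7.06 without immediate day 7 replicate 1 (adjusted p = 0.000170), and -2.02 (SE 0.83, adjusted p = 0.0354). The delayed call was lost without control replicate 2 or 4 (0.0544 and 0.0545), without delayed day 7 replicate 1, 2 or 5 (0.0656, 0.0777 and 0.0573), and without the filter (0.0590), with voom (0.102) or with only the compared groups fitted (0.0659).

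At day 14 Gap43 measured 16.8, 14.9, 86.1 and 72.5 CPM after immediate and 33.1, 20.8, 42.4 and 24.0 CPM after delayed repair. All 8 libraries lay above every control. The immediate rise of 2.05 (SE 0.83) passed narrowly (edgeR adjusted p = 0.0415), and the delayed difference of 1.39 (SE 0.82) did not (adjusted p = 0.163). The immediate call was lost without any control library (adjusted p = 0.0695, 0.0628, 0.0679, 0.0620 and 0.0805), without immediate day 14 replicate 3 or 4 (0.141 and 0.105), without the filter (0.0564) and with the replicate number as a block (0.0966). The delayed difference passed with voom (0.0312) and with only the compared groups fitted (0.000179).

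At day 21 Gap43 measured 37.1, 66.2, 38.1, 1.52 and 35.6 CPM after immediate repair and 17.9, 20.7 and 22.7 CPM after delayed repair. Immediate replicate 4 lay below control and the other 7 libraries above it. The log2 fold change was 1.63 (95% interval 0.00 to 3.26, edgeR adjusted p = 0.0920) and 0.83 (-0.98 to 2.64, adjusted p = 0.469). Without immediate day 21 replicate 4 the immediate value was 1.94 and passed (adjusted p = 0.0325), at a mean of 44.2 ± 14.7 CPM (SD, n = 4). It also passed with voom (0.0205) and with only the compared groups fitted (0.0450), and the delayed value passed in the latter fit (0.00188).

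Counted together, 6 of the 7 genes were called lower at day 7 of immediate repair, all but Jun, where 35% of all tested genes were called lower. At day 7 of delayed repair 5 were lower (32.9% of all genes), the exceptions being Jun and Ngfr. At day 14 of immediate repair S100b, Egr2 and Gfap were lower (25.4% of all genes), and Ngfr and Gap43 higher (26.1%). At day 14 of delayed repair 4 were lower, the same 3 and Sox10 (25.7% of all genes), and Ngfr was higher (26.2%). At day 21 of immediate repair S100b and Egr2 were lower (22.8% of all genes) and Ngfr higher (24.8%). At day 21 of delayed repair S100b alone was lower (21.2%), and Jun and Ngfr were higher (23.1%). The median log2 fold change of the 7 genes was -4.48, -1.76 and -0.73 at days 7, 14 and 21 of immediate repair, where that of all genes was -0.08, 0.01 and 0.02. It was -3.09, -2.01 and -0.16 in delayed repair, where that of all genes was -0.01, 0.00 and 0.00. Both repairs were set against the same 5 control libraries. Without immediate day 21 replicate 4, 4 genes were called at day 21 of immediate repair in place of 3. Since all groups share an estimate of spread, that fit also called 6 in place of 5 both in immediate repair at day 14 and in delayed repair at day 7, and 4 in place of 3 in delayed repair at day 21. Calls over all genes shift between fits as well, and those of that fit are not given here. These counts thus do not show whether the 7 genes moved more than others.

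**Figure D2:**
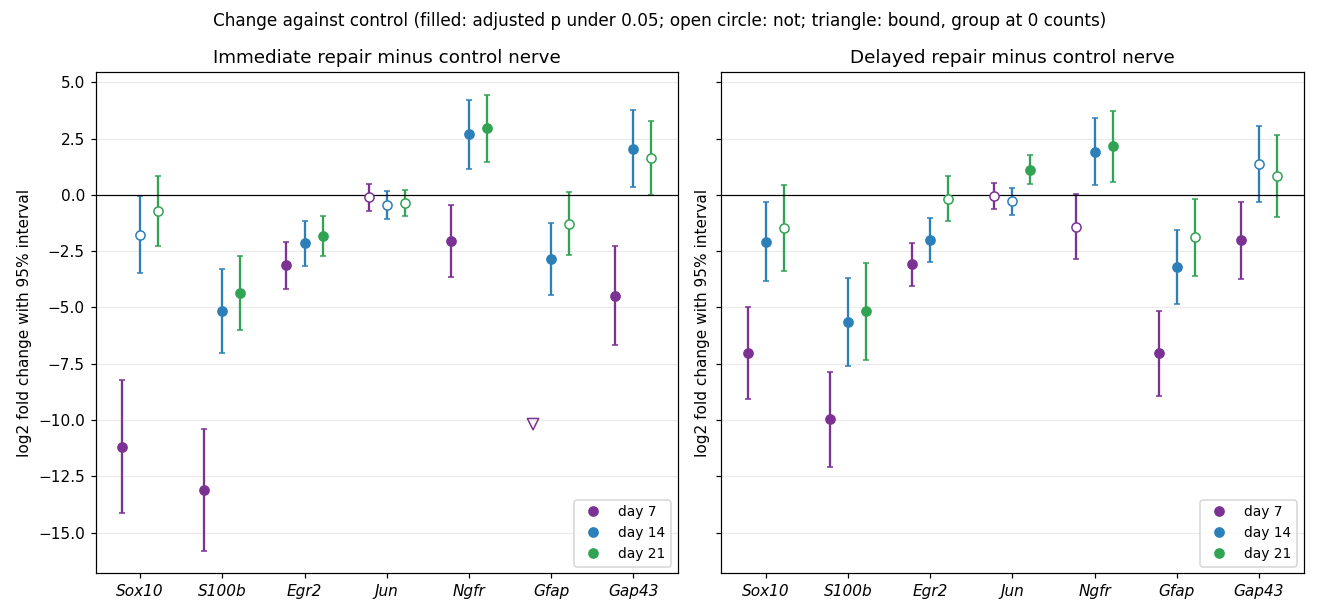
Log2 fold change of each gene against control nerve with its 95% interval, for immediate (left) and delayed repair (right) at each day; filled circles have adjusted p under 0.05 and the triangle is the bound for Gfap, at least 10.18 below control on this scale, at day 7 of immediate repair with 0 reads. S100b is lower at every time, Ngfr crosses from below to above 0 between days 7 and 14, and Jun stays near 0 except at day 21 of delayed repair.

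Sox10, S100b, Ngfr, Gfap and Gap43 rose between days 7 and 14 in both repairs. In immediate repair 5 of the 7 rose over that interval, where 19.5% of all tested genes did. Sox10 rose by 9.41 on the log2 scale (95% interval 6.57 to 12.26, edgeR adjusted p = 4.40e-05), S100b by 7.94 (SE 1.13, adjusted p = 3.25e-05), Gap43 by 6.53 (SE 1.16, adjusted p = 0.000216) and Ngfr by 4.75 (SE 0.89, adjusted p = 0.000351). Gfap was at least 161-fold higher at day 14 than the floor of day 7 (adjusted p = 0.000141). Most of the day 7 reads of S100b, Ngfr and Gap43 came from immediate day 7 replicate 1, without which their rises were 11.18, 5.46 and 9.11 (adjusted p = 2.10e-05, 0.000281 and 9.34e-05). Egr2 (0.99, adjusted p = 0.116) and Jun (-0.33, adjusted p = 0.429) did not pass, and Egr2 passed without immediate day 14 replicate 2 (1.28, adjusted p = 0.0418).

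In delayed repair the same 5 genes rose from day 7 to day 14 (18.1% of all genes did). Sox10 rose by 4.96 (SE 0.93, edgeR adjusted p = 0.000444), S100b by 4.33 (SE 0.83, adjusted p = 0.000536), Gfap by 3.84 (SE 0.85, adjusted p = 0.00207), Gap43 by 3.40 (SE 0.88, adjusted p = 0.00503) and Ngfr by 3.33 (SE 0.76, adjusted p = 0.00217). Without delayed day 7 replicate 3 the rise of Sox10 was 5.73 and that of Ngfr 4.04 (adjusted p = 0.000390 and 0.000938), and without replicate 4 that of Gfap was 5.02 (0.000868). The Gfap rise was not called with voom and sample weights (adjusted p = 0.0567). Egr2 missed the threshold (1.08, adjusted p = 0.0666), passed without delayed day 7 replicate 1 (1.59, adjusted p = 0.0107) and passed with voom (0.0125). Jun did not pass (-0.24, adjusted p = 0.553).

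From day 14 to day 21 no gene of the 7 was called in either repair by edgeR, where 0.256% of all tested genes were called in immediate and 0% in delayed repair. At an unadjusted p under 0.05 there was 1 of the 7 in immediate repair, Gfap (1.57, 95% interval 0.04 to 3.10), where 7.54% of all tested genes had such a p. In delayed repair there were 2, Egr2 (1.85, 0.78 to 2.91) and Jun (1.41, 0.72 to 2.10), where 3.87% of all genes had such a p. In the fit without delayed day 21 replicate 3 Jun was called over this interval (1.75, edgeR adjusted p = 0.0287), as it was by DESeq2 (0.03) and by voom with sample weights (0.0310), which also called Egr2 (0.0105). Without delayed day 21 replicate 2 the Jun value was 0.95 and far from a call (edgeR adjusted p = 1). Of the 7 genes DESeq2 called 1 in delayed repair and none in immediate repair, where it called 36 and 153 of all genes. Without immediate day 21 replicate 4 the immediate difference of Sox10 was 1.35 in place of 1.03 (adjusted p = 0.485) and that of Gfap 1.88 (adjusted p = 0.204). The other 5 genes did not pass either, at 1.09 in place of 0.78 for S100b, 0.56 in place of 0.31 for Egr2, 0.06 in place of 0.08 for Jun, 0.58 in place of 0.27 for Ngfr and -0.10 in place of -0.41 for Gap43.

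Over the whole interval from day 7 to day 21, 6 of the 7 genes rose in immediate repair (24.5% of all genes), all but Jun (-0.26, adjusted p = 0.503). The number was also 6 without immediate day 21 replicate 4, where Jun was at -0.28 (adjusted p = 0.496) and Egr2 at 1.55 (adjusted p = 0.00584). With all libraries Egr2 was among them at 1.31 (SE 0.47, edgeR adjusted p = 0.0273), a call that was lost without immediate day 21 replicate 1 or 2 (0.0784 and 0.0529), without immediate day 7 replicate 1 or 3 (0.0628 and 0.0911), with the replicate number as a block (0.0601) and with only the compared groups fitted (0.0666). All 7 rose in delayed repair (15.1% of all genes). There Egr2 rose by 2.93 (SE 0.49, adjusted p = 0.000287) and Jun by 1.17 (SE 0.31, adjusted p = 0.00889). The Jun rise was 0.71 without delayed day 21 replicate 2 (adjusted p = 0.152) and was lost with only the compared groups fitted (0.109). The delayed rise of Gap43 (2.85, adjusted p = 0.0234) was lost without delayed day 21 replicate 2 (0.0640) or delayed day 7 replicate 2 (0.0516), with voom (0.0748) and with only the compared groups fitted (0.138). That fit also lost Gfap (5.15, adjusted p = 0.0566).

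In some groups the same libraries were high or low in several of these genes. At day 14 of immediate repair replicates 3 and 4 lay above replicates 1 and 2 in Sox10, S100b, Ngfr, Gfap and Gap43. At day 21 of delayed repair replicate 3 was the lowest in 6 genes and the highest in Gap43. To compare the genes within a library, each count was divided by the Sox10 count of the same library, in the 18 repair libraries with at least 20 Sox10 reads. The limit of 20 was set after the data had been seen. This ratio does not depend on library scaling. The 7 repair libraries left out are all from day 7, and no day 7 library of immediate repair entered.

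Relative to Sox10, S100b was low and Ngfr and Gap43 were high in all 18 repair libraries. The S100b ratio lay between 8.21 and 11.7 in control nerve and between 0.668 and 1.98 in repair, without overlap. Its median was 0.969 and 0.854 at days 14 and 21 of immediate and 0.908 and 0.881 at days 14 and 21 of delayed repair, so it was nearly level between groups. The Ngfr ratio lay between 0.0469 and 0.124 in control nerve and between 0.803 and 3.67 in repair, a median 15.8 times that of control. The Gap43 ratio lay between 0.0328 and 0.0566 in control nerve and between 0.145 and 1.48 in repair, a median 12.0 times that of control. The Gap43 ratio had a median of 0.553 at day 14 and 0.203 at day 21 of immediate repair, and of 0.488 and 0.159 in delayed repair, with overlap between the days in both repairs. In immediate repair the overlap came from replicate 4 of day 21 (0.568), and the other 4 libraries of that day lay between 0.152 and 0.325, below the day 14 range of 0.419 to 0.627.

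Gfap stayed nearer to its control ratio. That ratio lay between 0.188 and 0.312 in control and between 0.0831 and 0.523 in repair, and 14 of the 18 repair libraries lay below all controls and 2 above. The Egr2 ratio had a median of 0.869 in control nerve, 0.721 and 0.416 at days 14 and 21 of immediate repair, and 1.13 and 2.41 at days 14 and 21 of delayed repair. Delayed day 7 replicates 3 and 4 were higher, at 4.55 and 4.30, on 87 and 64 reads of Sox10. The lowest Egr2 ratio at day 21 of delayed repair, 1.64, was above the highest of 4 immediate libraries of that day, 0.533, while immediate day 21 replicate 4 was at 6.75 on 44 reads of Sox10. The Jun ratio lay between 0.555 and 1.4 in control nerve, and 14 of the 18 repair libraries lay above all controls. Its median was 0.666 in control nerve and 3.77 over the repair libraries. Day 14 libraries ranged from 1.58 to 5.02 (immediate) and from 1.48 to 5.58 (delayed), and delayed day 7 replicates 3 and 4 had 36.7 and 39.1. For day 21 the Jun ratio was 4.18 to 6.25 in delayed libraries and 73.9 in immediate replicate 4. Those 4 immediate libraries, at 0.644 to 1.21, lay inside the control range.

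**Figure D3:**
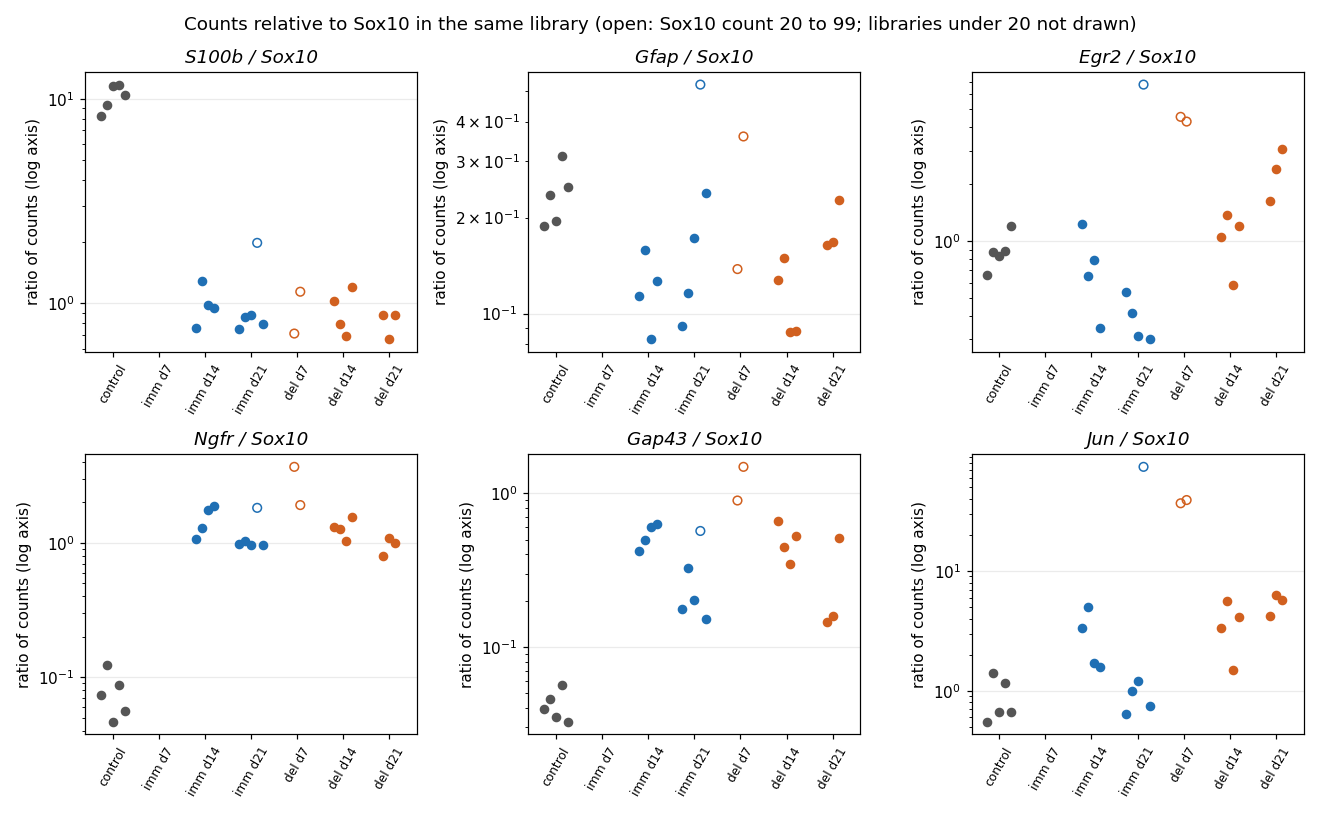
Count of each gene divided by the Sox10 count of the same library, on a log axis, by group; open points have 20 to 99 reads of Sox10, and libraries under 20 are not drawn. S100b lies about 10 in control and about 1 in repair, Ngfr and Gap43 lie above control in all 18 repair libraries, and Egr2 and Jun differ between the repairs at day 21 apart from the open point of immediate replicate 4.

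How alike the courses of the 7 genes were was measured by the root mean square difference of their centred group means of log2 CPM over the 7 groups, and ranked over the other 16014 tested genes. Seen from Sox10, Gfap ranked 21 (difference 0.79), S100b ranked 89 (1.22), Gap43 ranked 249 (1.66) and Ngfr ranked 872 (2.31). Egr2 ranked 1729 and Jun 8094, in the middle of all genes. Seen from Ngfr, Gap43 was the nearest of the others at rank 432 (0.84), and seen from Gap43, Ngfr was at rank 187. Seen from Egr2, Jun was the nearest of the others but only at rank 3193 (1.03). Genes with a flat course are near to many others, so ranks seen from different genes are not on 1 scale. A prior count of 2 was added before the log, so 0 reads stand at -2.867. Sox10, S100b and Gfap held 6, 18 and 0 reads at day 7 of immediate repair, so that prior shapes their means there. The day 21 means of immediate repair include replicate 4, which was low in every gene of the 7 but Jun. How much the prior or that library adds to the likeness of these genes was not tested.

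Delayed and immediate repair were compared on each day. The repairs differ in the wait of 3 months, in the time since injury and in whether the tube was placed at the injury. Any batch is not stated, and these cannot be told apart here. No gene of the 7 was called by edgeR on any day, where the calls over all tested genes made up 0.712% (day 7), 0% (day 14) and 0.05% (day 21). The day 7 share, 114 genes, was not stable. It became 15 genes with relative log expression factors and 7 without the filter. With the replicate block, voom or only the compared groups fitted it became 0, and with DESeq2 341. At an unadjusted p under 0.05 there were 4, 0 and 2 of the 7 at days 7, 14 and 21, where 8.44%, 1.52% and 5.69% of all genes had such a p. At day 7, 4 genes were higher after delayed repair at that level. Sox10 differed by 4.14 (95% interval 1.32 to 6.97, edgeR adjusted p = 0.202), S100b by 3.12 (1.05 to 5.19, adjusted p = 0.177) and Gap43 by 2.46 (0.32 to 4.61, adjusted p = 0.440). With 1 library left out in turn, Sox10 ran from 3.37 to 4.45, S100b from 2.74 to 6.37 and Gap43 from 1.91 to 5.04. The highest values of S100b and Gap43 were those without immediate day 7 replicate 1, and none of these fits called a gene of the 7. Gfap was at least 8.42-fold higher than the floor of the immediate group (edgeR adjusted p = 0.303), or 3.44-fold without delayed day 7 replicate 4, which held 23 of the 35 reads of its group. DESeq2 called Sox10, S100b and Gfap (adjusted p = 0.00719, 0.0156 and 0.00934), and voom with sample weights called none. The groups overlapped in every gene, and the delayed reads of Sox10 came mainly from replicates 3 and 4, with 87 and 64 of 158 reads. Egr2 (0.05, -0.90 to 0.99) and Jun (0.07, -0.53 to 0.68) differed by less than 2-fold within their intervals.

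At day 14 the differences, delayed minus immediate, ran from -0.78 for Ngfr (95% interval -2.33 to 0.78) to 0.17 for Jun (-0.47 to 0.80), with edgeR adjusted p = 1 for all 7. The interval of Sox10 (-0.31, -2.05 to 1.43) allows a 4-fold difference downward. At day 21, 5 of the 7 genes leaned one way and 2 the other. Sox10 (-0.75, -2.59 to 1.09), S100b (-0.80, -2.51 to 0.90), Ngfr (-0.80, -2.44 to 0.85), Gfap (-0.60, -2.23 to 1.02) and Gap43 (-0.80, -2.68 to 1.08) had lower values after delayed repair, within intervals that include 0. Without immediate day 21 replicate 4 those values were -1.07, -1.12, -1.11, -0.91 and -1.11, and still did not pass (adjusted p = 0.859, 0.830, 0.803, 0.873 and 0.876).

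Egr2 and Jun had higher values at day 21 of delayed repair, and they were the 2 genes of the 7 whose groups did not overlap, as in 4.21% of all tested genes. Jun had a mean of 529 ± 282 CPM (SD) over the 3 delayed libraries and 188 ± 34.8 CPM (SD) over the 5 immediate ones, a log2 difference of 1.5 (95% interval 0.85 to 2.14) that missed the threshold (edgeR adjusted p = 0.0917). Egr2 averaged 218 ± 90.0 CPM and 68.6 ± 34.4 CPM, a difference of 1.67 (0.67 to 2.66, adjusted p = 0.393). Jun was called by DESeq2 (adjusted p = 0.00478), by voom with sample weights (0.0331) and by edgeR without delayed day 21 replicate 3 (1.83, adjusted p = 0.0137). Over all fits with 1 library of either group left out, Jun ran from 1.04 (without delayed day 21 replicate 2, adjusted p = 0.581) to that value, and no other of them called it. Among fits without a library of another group, that without delayed day 7 replicate 1 called 1 gene of the 7 in this comparison, and 13 of all genes in place of 8. Egr2 was called by voom (0.0331). Without immediate day 21 replicate 4 the values were 1.52 for Jun (adjusted p = 0.0901) and 1.42 for Egr2 (0.347).

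**Figure D4:**
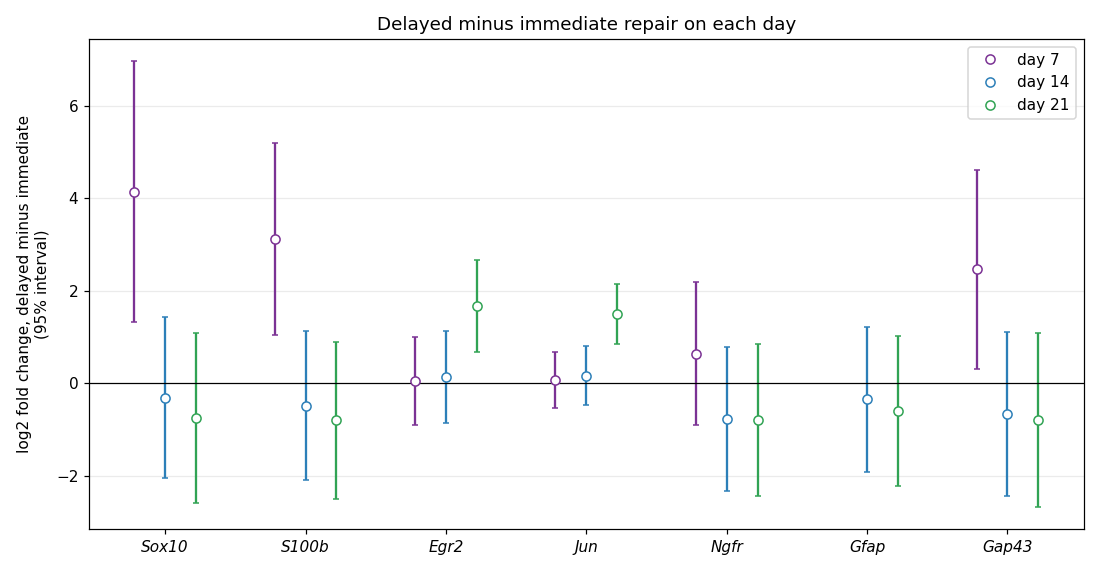
Log2 fold change of delayed minus immediate repair with its 95% interval for each gene on each day; open circles did not pass the adjusted threshold, and Gfap at day 7 is left out because the immediate group had 0 reads. At day 7 Sox10, S100b and Gap43 lie above 0, at day 14 every interval includes 0, and at day 21 the intervals of Egr2 and Jun lie above 0.

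An interaction test asked whether delayed and immediate repair differed in different ways on the 3 days. EdgeR called none of the 7 genes and 0% of all tested genes, with or without immediate day 21 replicate 4. DESeq2, which called 115 genes in all, and voom, which called 0, called none of the 7 either. At an unadjusted edgeR p under 0.05 there were 6 of the 7, where 5.94% of all genes had such a p. For Sox10, S100b, Gfap and Gap43 this rests on a day 7 immediate group with 6, 18, 0 and 29 reads in all. Jun had the lowest adjusted p, 0.427, with a difference that was 1.42 greater at day 21 than at day 7 on the log2 scale. For Sox10 the difference moved by -4.89 between those days, with an adjusted p of 0.612 by edgeR and 0.121 by DESeq2. Ngfr was the exception, at an unadjusted p of 0.329 in edgeR's test across all genes.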

How the data were processed

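Each library has 1 column of read counts, unnormalized whole numbers per Ensembl gene as the authors deposited them. Per the labels' protocols, messenger RNA was captured with poly(T) beads out of 400 ng of RNA (integrity above 6) and the library kit did not mark strand, which leaves sense and antisense or overlapping genes unseparated. Tools named by the submitters' processing notes, whose roles are not stated, are featureCounts 1.5.0-p3, HISAT2 2.0.5 and DESeq2 1.38.3. Genome build and annotation: not given in the sources used here.

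The main test was edgeR 4.0.16 in R 4.3.3. Low counts were filtered with filterByExpr, which left 16015 of 32545 genes (49.2%) and all 7 genes described. Libraries were scaled with TMM factors, and 1 quasi-likelihood model of 7 groups, with no covariate, was fitted to all libraries. Adjusted p-values are Benjamini-Hochberg values over all tested genes of a comparison, with a threshold of 0.05. Intervals are at 95%. CPM values are counts per 1000000 of the scaled library total. A group at 0 counts was given a floor of 3 counts over the group. The scripts were tested on simulated data.

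The 51 pairs of libraries of the same group differed by more than sampling noise, with a lowest chi-square per degree of freedom of 14.9, so each library was counted once. The alternatives were DESeq2 1.42.0, limma voom 3.58.1 with sample quality weights, relative log expression factors, no filter, the replicate number as a block, only the compared groups fitted, 2 libraries left out together (immediate day 21 replicate 4 and delayed day 7 replicate 5), and each library left out in turn. The genes and lists were chosen with earlier results of these data known. The rule for named genes was to name all 7. Lists of other Schwann cell genes and of markers of other cell types, written by symbol, were not used here because identifiers could not be matched to symbols. Upstream sequences come from a RefSeq table of build GRCr8 and were matched by symbol for 3 of the 7 genes.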

Additional observations from a re-analysis of the deposited data

Results flagged for a closer look

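Of 41 combinations of a gene and a group of 4 or 5 libraries, 9 held a library whose gap to its nearest neighbour was too large a part of the group's range by Dixon's test at the 95% level. Chance gives about 1 in 20 groups only for independent, normally spread values. CPM from few reads, and libraries that stand apart in several genes, do not meet this, so the share flagged cannot be set against that rate. Immediate day 21 replicate 4 accounted for 3 of them. It measured 2.68 CPM of Sox10, with the nearest library at 187 CPM, 5.30 CPM of S100b, with the nearest at 157 CPM, and 4.87 CPM of Ngfr, with the nearest at 180 CPM. Immediate day 7 replicate 1 stood high in S100b, at 1.09 CPM with the nearest at 0.0699 CPM, and in Gap43, at 1.67 CPM with the nearest at 0.228 CPM. Delayed day 7 replicate 1 stood high in Egr2, at 63.2 CPM with the nearest at 25.2 CPM, and in Jun, at 387 CPM with the nearest at 216 CPM. Delayed day 14 replicate 3 measured 122 CPM of Sox10, with the nearest at 50 CPM. Control replicate 3 measured 3851 CPM of S100b, with the nearest at 2725 CPM.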

How the results depend on the processing

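Of 735 results for a gene under another setting, 689 kept their direction and their side of the threshold, 15 lost the call, 27 gained it and 4 reversed. With 1 library left out, 843 of 910 kept both, 41 lost the call, 6 gained it and 20 reversed. The number of the 7 genes called moved by more than 1.5 times in these cases, and the cause was not tested. For delayed against immediate repair it was 3 in place of 0 with DESeq2 at day 7, and 1 with DESeq2 and 2 with voom in place of 0 at day 21. Over all genes those fits called 341, 57 and 58, where the edgeR test called 114 and 8. Against control at day 21 it was 5 with voom in place of 3 for immediate repair, and 5 with voom and 6 with only the compared groups fitted in place of 3 for delayed repair, in fits that called 9203, 9145 and 8791 of all genes where the edgeR test called 7636 and 7096. For day 21 against day 14 of delayed repair it was 1 with DESeq2 and 2 with voom in place of 0 (36 and 70 of all genes in place of 0), and for day 21 against day 7 it was 4 with only the compared groups fitted in place of 7 (884 of all genes in place of 4179). With each library left out in turn, the number ran from 0 to 1 for delayed against immediate repair at day 21, from 3 to 5 for delayed repair at day 14 against control, from 1 to 4 for delayed repair at day 21 against control, and from 0 to 1 for day 21 against day 14 of delayed repair. In the first of these, 1 was called without delayed day 21 replicate 3 or delayed day 7 replicate 1. Those fits called 9 and 13 of all genes in place of 8. For the other ranges the calls over all genes are not given here.

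None of the values that reversed had been called. Egr2 at day 7, delayed minus immediate, was -0.048 with the replicate block and -0.37 with voom, and Jun at day 7 of delayed repair against control was 0.008 without the filter and 0.03 with the replicate block. With 1 library left out, the differences of delayed minus immediate repair ran from -0.47 to 0.32 for Egr2, -0.18 to 0.22 for Jun and -0.071 to 1.36 for Ngfr at day 7, and from -0.15 to 0.75 for Egr2 and -0.79 to 0.10 for Sox10 at day 14. Against control, Jun ran from -0.26 to 0.13 at day 7 of immediate and from -0.30 to 0.20 at day 7 of delayed repair, and Egr2 from -0.52 to 0.085 at day 21 of delayed repair. From day 14 to day 21 of immediate repair, Gap43 ran from -0.761 to 0.042, Jun from -0.045 to 0.273 and Ngfr from -0.048 to 0.728. In delayed repair, Ngfr ran from -0.16 to 0.59 over those days and Jun from -0.39 to 0.01 from day 7 to day 14.

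The replicate numbers did not meet the rule for pairing, a correlation above 0.1 in every pair. Over 11 pairs of same-numbered immediate and delayed libraries, the correlation of deviations from the group mean ran from -0.66 to 0.41 and was above 0.1 in 3, and 6 of 22 samples correlated best with their own number. All of these were replicates 2, 3 and 4 of day 14, with correlations of 0.41, 0.297 and 0.149, while replicate 1 of that day was at 0.084. As a block, the number ended the calls of Gap43 at day 14 of immediate repair (1.84, edgeR adjusted p = 0.0966), Ngfr at day 14 of delayed repair (1.78, adjusted p = 0.0626) and Egr2 from day 7 to day 21 of immediate repair (1.19, adjusted p = 0.0601), and changed no other call of the 7 genes.

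An alternative added after the data had been seen asked for 100 in place of 20 reads of Sox10 before a ratio was taken. The median ratio over repair libraries was then 0.874 for S100b, 0.793 for Egr2, 3.36 for Jun, 1.06 for Ngfr, 0.128 for Gfap and 0.419 for Gap43. Depth limits the day 7 values most, where Sox10, S100b, Gfap and Gap43 rest on 0 to 95 reads per library.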
